A study of Mus musculus with 10 samples.

Results

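The 7 genes described here are known for their place in Schwann cells, the glia of peripheral nerve, and in related glia. They were taken by symbol from the table of TPM, a transcript abundance scaled to gene length and to the library total. All 7 were found among 29890 listed genes, and 6 were among the 15276 genes tested, which averaged 1 TPM or more over all tumors. The 7 are Mbp, Cnp, Ncmap and Prx, which belong to the myelin sheath or to the cell that makes it, Erbb3 and Gfra3, which are receptors, and Cdh19, a cadherin.

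Bulk RNA sequencing was done on 10 subcutaneous tumors grown from B2905-M4, a mouse melanoma line, in female C57BL/6J mice. The mice were 7 to 8 weeks old and 3000000 cells were injected. Adamts7, the gene of a secreted metalloproteinase, was overexpressed in 5 of the tumors, the other 5 carried the vector alone, and no tumor was given immunotherapy. By the design text, 2 Adamts7 tumors were taken at day 35, 3 of each group at day 45 and 2 vector tumors at day 50. No tumor is tied to a day, so that harvest day and tumor size cannot be told apart from the group. Both groups descend from 1 line, the sources used here do not give the promoter of the construct, and the design text does not say whether each tumor came from its own mouse. Any p-value below is set by how far these 10 tumors vary, which may be technical.

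Schwann cells and melanocytes both arise from the neural crest, and both depend on the transcription factor Sox10. Schwann cells wrap axons in response to neuregulin, which axons display and which Erbb3 binds together with Erbb2. In the cells that myelinate, Sox10 and Egr2 switch on the genes of the sheath, among them Mbp and Prx. Several of these genes are also active in pigment cells and melanoma, so that a transcript in a bulk tumor does not by itself name a Schwann cell. In bulk RNA, fewer cells of a type and less RNA per cell cannot be told apart.

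Of the 10 libraries, 3 stood apart. Adamts7 had 88.5, 96.0, 78.2, 74.8 and 18.2 TPM across Adamts7 tumors 1 to 5, against 6.49, 6.98, 28.3, 8.57 and 27.6 TPM across vector tumors 1 to 5, so that vector tumors 3 and 5 had more Adamts7 transcript than the tumor labelled Adamts7 5. The 15 melanocyte differentiation genes summed to 85.8 and 1815 TPM in vector tumors 3 and 5, against 12726 to 24053 TPM in the Adamts7 tumors and 8297 to 17288 TPM in vector tumors 1, 2 and 4. The 10 T cell markers summed to 417 and 318 TPM in vector tumors 3 and 5, against 20.9 to 49.9 TPM in the Adamts7 tumors and 47.9 to 67.8 TPM in the other vector tumors. Every group difference below takes the labels as given.

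The glial label held only in part. Sox10 had 725, 705, 713, 714 and 494 TPM across Adamts7 tumors 1 to 5, against 742, 662, 269, 689.8 and 311 TPM across vector tumors 1 to 5. The myelin protein gene Pmp22 lay between 158 and 257 TPM, and Foxd3, a factor of the early crest lineage, between 26.7 and 97.8 TPM. Mag, a glycoprotein of myelinating cells, was at 0.24 to 0.82 TPM in Adamts7 tumors and at 0.42 to 6.19 TPM in vector tumors. Of the genes of brain glia, Mog was at 0 TPM in 9 of 10 tumors and Mobp at no more than 0.38 TPM, but not all were so low. The oligodendrocyte lineage list of 10 genes, of which 5 were tested, summed to 24.1 to 69.4 TPM in Adamts7 tumors. In vector tumors it summed to 18.2 to 79.3 TPM. Beside these values Pmel, a melanosome protein, reached 8390 TPM, so the 7 genes are described as genes of the lineage and not as a measure of Schwann cells.

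Limma, a linear model fitted to log2(TPM + 1) over all 15276 genes with Benjamini-Hochberg adjustment at 0.05, called 0 of the 6 tested members in either direction. Over all genes it called 34, or 0.223%, with 4 (0.0262%) higher and 30 (0.196%) lower in Adamts7 tumors. At an unadjusted p under 0.05 the test passed 1 member, Mbp, and 20.2% of all tested genes. In the authors' deposited table, where 1496 of 18796 genes with an adjusted p were under 0.05, no member was, and the lowest adjusted p of a member was 0.169 for Mbp. For all 6 members the groups overlapped, while 4.89% of all tested genes separated the groups without overlap, 1.11% with higher and 3.78% with lower values in Adamts7 tumors. Of the members' log2 fold changes 3 were positive and 3 negative, and their median was -0.06, beside -0.10 over all tested genes.

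**Figure D1:**
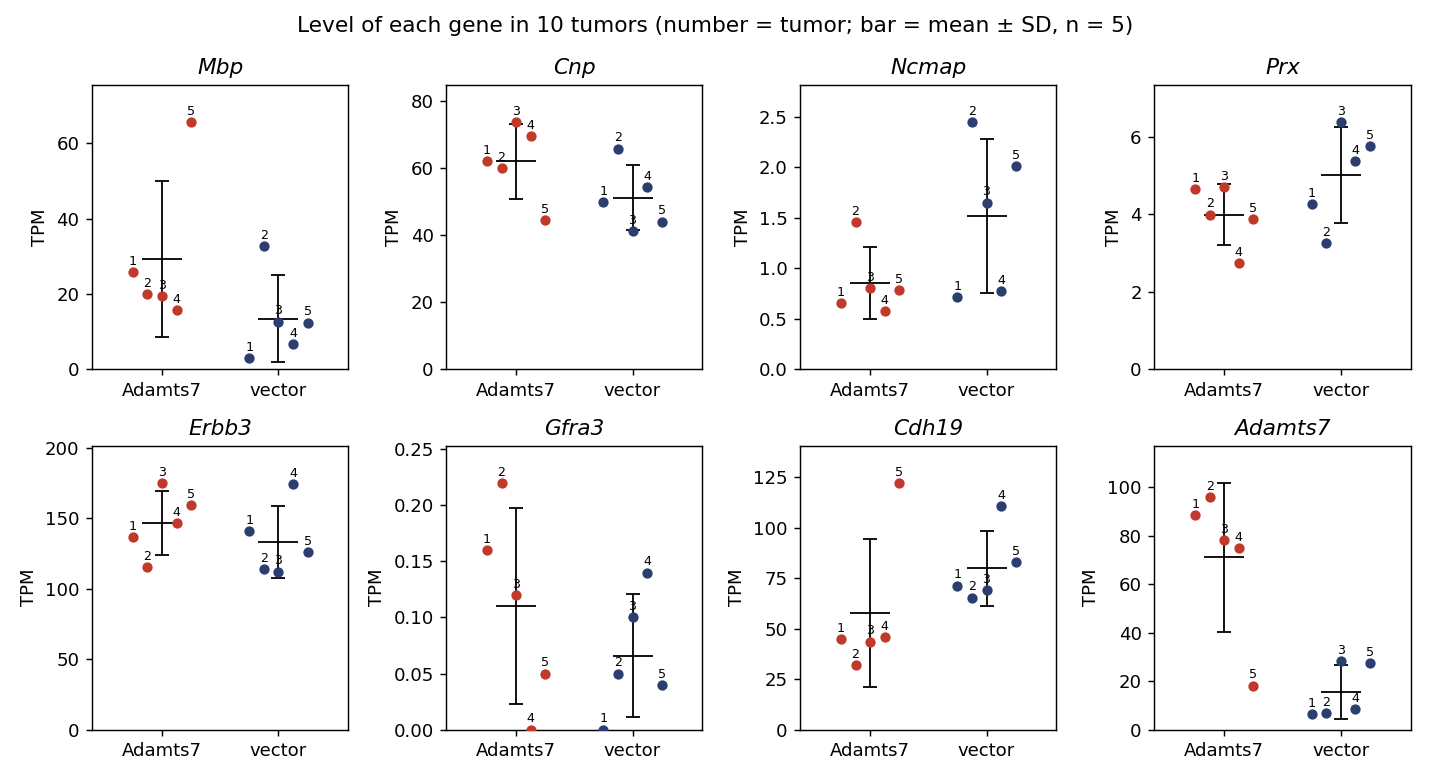
Level in TPM (linear axes from 0) of the 7 genes and of Adamts7 in each Adamts7 tumor (red, left) and vector tumor (blue, right), with the tumor number above its point and the mean ± SD of 5 tumors as a black bar. The tumor labelled Adamts7 5 is the highest of all for Mbp at 65.7 TPM and for Cdh19 at 122 TPM, and the lowest of its group for Adamts7 at 18.2 TPM.

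By level, Erbb3 stood first in both groups, followed by Cnp and Cdh19, then Mbp, Prx, Ncmap and Gfra3. Cnp averaged above Cdh19 in Adamts7 tumors and below it in vector tumors, and their ranges overlapped in each. Erbb3 and Cdh19 overlapped in Adamts7 tumors through the tumor labelled Adamts7 5, and did not in vector tumors. Mbp overlapped with Cnp and Cdh19 in Adamts7 tumors, in both cases only through the tumor labelled Adamts7 5, and with Prx in vector tumors. The ranges of Prx, Ncmap and Gfra3 did not overlap with each other in either group.

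Mbp encodes myelin basic protein, which holds the cytoplasmic faces of compact myelin together, and it was the most variable of the 6 tested members. It had 25.6, 19.9, 19.3, 15.7 and 65.7 TPM across Adamts7 tumors 1 to 5, against 2.89, 32.6, 12.6, 6.54 and 12.3 TPM across vector tumors 1 to 5, a 22.7-fold span. The tumor labelled Adamts7 5 was highest and vector tumor 2 came next, while vector tumors 1 and 4 were lowest, and the groups overlapped through vector tumor 2. Mbp averaged 29.2 ± 20.7 TPM in Adamts7 tumors and 13.4 ± 11.5 TPM in vector tumors (SD, n = 5 each). Its log2 fold change was 1.23 with a standard error of 0.55 (limma, adjusted p = 0.242). The authors' deposited table gives Mbp a log2 fold change of 1.27 with a standard error of 0.58 and an adjusted p of 0.169.

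The log2 fold change of Mbp was 0.89 without the tumor labelled Adamts7 5 (limma adjusted p = 0.292), and leaving out vector tumor 2 gave 1.62 (limma adjusted p = 0.116). Vector tumors 1 and 4, the lowest in Mbp, had the highest sums of 7 adipocyte markers, 108 and 178 TPM. Vector tumors 2, 3 and 5 had 45.65, 21.89 and 32.65 TPM, and the Adamts7 tumors 19.6 to 27.4 TPM. Vector tumor 2, the next in this sum, was the highest vector tumor in Mbp. Only 2 of the 7 adipocyte markers reached the level tested, and the part of other tissue in the Mbp values was not tested. The Mbp locus also gives rise to Golli transcripts, which are made outside myelinating cells, and a value per gene does not separate them.

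Cnp encodes the cyclic nucleotide phosphodiesterase of non-compact myelin, which also binds tubulin and is made at lower levels in many cells. It had 62.0, 60.0, 73.8, 69.7 and 44.4 TPM across Adamts7 tumors 1 to 5, against 49.9, 65.9, 41.2, 54.3 and 44.0 TPM across vector tumors 1 to 5. Adamts7 tumors 1 to 4 lay above every vector tumor but vector tumor 2, and the tumor labelled Adamts7 5 lay among the vector tumors. Cnp averaged 62.0 ± 11.3 TPM in Adamts7 tumors and 51.1 ± 9.71 TPM in vector tumors (SD, n = 5 each), a log2 fold change of 0.27 with a standard error of 0.17 that did not pass (limma, adjusted p = 0.361). The log2 fold change was 0.39 without the tumor labelled Adamts7 5 and 0.12 without vector tumors 3 and 5, and neither passed (limma, adjusted p = 0.144 and 0.831). The annotation in hand has exons of Dnajc7 over part of Cnp on the other strand, and the sources used here do not say whether strand was used in counting.

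Ncmap encodes a small membrane protein of non-compact myelin in peripheral nerve, and it was near the lower bound of the test. It had 0.65, 1.46, 0.8, 0.57 and 0.78 TPM across Adamts7 tumors 1 to 5, against 0.71, 2.45, 1.65, 0.77 and 2.01 TPM across vector tumors 1 to 5. Vector tumors 2, 3 and 5 were the highest, above Adamts7 tumor 2, and vector tumors 1 and 4 lay among the remaining Adamts7 tumors. Ncmap averaged 0.852 ± 0.353 TPM in Adamts7 tumors and 1.52 ± 0.765 TPM in vector tumors (SD, n = 5 each), and its log2 fold change of -0.41 with a standard error of 0.26 did not pass (limma, adjusted p = 0.378). The size of the Ncmap value moved with the setting. It was -0.68 with a pseudocount of 0.1 TPM, -0.19 under quantile normalization, -0.28 without vector tumor 2 and -0.26 without vector tumors 3 and 5, and it passed in none of these.

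Prx encodes periaxin, a scaffold that links the myelinating Schwann cell through Drp2 and dystroglycan to its basal lamina, and lung endothelium makes it too. It had 4.65, 3.99, 4.71, 2.74 and 3.87 TPM across Adamts7 tumors 1 to 5, against 4.27, 3.26, 6.39, 5.37 and 5.76 TPM across vector tumors 1 to 5. Vector tumors 3, 5 and 4 were the highest, Adamts7 tumor 4 was the lowest, and the groups overlapped through vector tumors 1 and 2. Prx averaged 3.99 ± 0.795 TPM in Adamts7 tumors and 5.01 ± 1.25 TPM in vector tumors (SD, n = 5 each), with a log2 fold change of -0.26 and a standard error of 0.19 (limma, adjusted p = 0.45). Without vector tumors 3 and 5 the value was -0.08, and under quantile normalization it turned to 0.0052, so that no direction can be given for Prx. Of the 11 endothelial markers, 0 were called, and they summed to 155 to 311 TPM in Adamts7 tumors and 273 to 374 TPM in vector tumors, and their part in the Prx values was not tested. In the annotation, exons of Gm15541 lie over part of Prx on the other strand, as with Cnp.

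Upstream sequence is given for 3 of the 7 members, Ncmap, Prx and Cnp. It is shown because Egr2 and Sox10, the factors that drive myelin genes, both varied between these tumors. The stretches run from 250 to 31 bases before the gene start in RefSeq (build GRCm38.p6), 5′ to 3′ on the gene's strand. Capitals mark GTGGGNG, the core shared by sites of early growth response factors such as Egr2, and ACAAAG, a core of SOX factor sites, each searched on both strands, where neither overlapped the other.
Ncmap, chr4:135398258-135398477, minus strand: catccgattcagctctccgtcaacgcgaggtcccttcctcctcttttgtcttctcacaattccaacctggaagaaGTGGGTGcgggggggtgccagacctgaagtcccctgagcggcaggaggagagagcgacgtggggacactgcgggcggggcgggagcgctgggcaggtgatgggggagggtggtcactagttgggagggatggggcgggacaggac
Prx, chr7:27499074-27499293, plus strand: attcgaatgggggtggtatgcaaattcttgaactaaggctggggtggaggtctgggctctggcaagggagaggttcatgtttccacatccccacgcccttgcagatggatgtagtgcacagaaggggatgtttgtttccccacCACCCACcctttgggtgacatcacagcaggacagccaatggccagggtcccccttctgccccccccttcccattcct
Cnp, chr11:100574689-100574908, plus strand: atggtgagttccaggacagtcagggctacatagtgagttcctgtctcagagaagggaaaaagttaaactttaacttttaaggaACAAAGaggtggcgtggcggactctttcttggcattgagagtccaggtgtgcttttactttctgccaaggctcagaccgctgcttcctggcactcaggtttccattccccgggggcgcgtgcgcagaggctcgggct
Ncmap and Prx each held 1 match to GTGGGNG, Prx on the reverse strand, and Cnp held 1 match to ACAAAG. Of all 32851 windows of the same 220 bases, 24.8% held GTGGGNG and 14.8% held ACAAAG, so such matches are common, and they are given as a description of these letters only.

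Erbb3 encodes the neuregulin receptor on which Schwann cell precursors depend, and it was the most abundant and the steadiest member. It had 137, 115, 175, 146 and 159 TPM across Adamts7 tumors 1 to 5, against 141, 114, 112, 174 and 126 TPM across vector tumors 1 to 5, a 1.56-fold span over all tumors. The groups overlapped throughout, with Adamts7 tumor 3 and vector tumor 4 at the top and vector tumors 3 and 2 at the bottom. Erbb3 averaged 147 ± 22.7 TPM in Adamts7 tumors and 133 ± 25.5 TPM in vector tumors (SD, n = 5 each), with a log2 fold change of 0.14 and a standard error of 0.15 (limma, adjusted p = 0.603). The value was 0.04 without vector tumors 3 and 5. In vector tumors 3 and 5, where Sox10 was lowest, Erbb3 stood at 0.418 and 0.406 of the Sox10 level, against 0.164 to 0.323 in Adamts7 tumors and 0.172 to 0.253 in the other vector tumors.

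Gfra3 encodes the receptor for artemin, a ligand of the GDNF family that signals through Ret, and it was close to absent from these libraries. It had 0.16, 0.22, 0.12, 0 and 0.05 TPM across Adamts7 tumors 1 to 5, against 0, 0.05, 0.1, 0.14 and 0.04 TPM across vector tumors 1 to 5, and so lay below the level tested. With no filter on level, its log2 fold change was 0.06 with a standard error of 0.06 (limma, adjusted p = 0.639). TPM keeps no depth, so no limit of detection can be set for Gfra3. The artemin gene Artn, named for its role after its values were seen, was at no more than 0.14 TPM in any tumor.

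Cdh19 encodes a type II cadherin of the crest and of Schwann cell precursors, and its values split the Adamts7 tumors. It had 45.0, 31.8, 43.6, 45.9 and 122 TPM across Adamts7 tumors 1 to 5, against 71.3, 65.4, 69.1, 111 and 82.9 TPM across vector tumors 1 to 5. Adamts7 tumors 1 to 4 all lay below the lowest vector tumor, whereas the tumor labelled Adamts7 5 was the highest of all 10. Cdh19 averaged 57.7 ± 36.5 TPM in Adamts7 tumors and 79.9 ± 18.5 TPM in vector tumors (SD, n = 5 each). Over the 10 tumors the log2 fold change was -0.60, its standard error was 0.31, and it did not pass (limma, adjusted p = 0.298).

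Without the tumor labelled Adamts7 5, Cdh19 averaged 41.6 ± 6.61 TPM (SD, n = 4) in Adamts7 tumors, against 79.9 ± 18.5 TPM (SD, n = 5) in vector tumors. The log2 fold change of Cdh19 was then -0.91 with a standard error of 0.18 and passed (limma, adjusted p = 0.0284). The tumor left out was the highest of all in Cdh19, at 122 TPM. Its removal could only deepen the difference, so no conclusion is drawn from the pass in that fit. Of 15322 genes tested in that fit, 170 were called higher and 487 lower. With weights estimated for each tumor, Cdh19 was at -0.89 (limma, adjusted p = 0.0331), beside 263 genes called higher and 956 lower of 15276 tested. The tumor labelled Adamts7 5 had a weight of 0.307 there, and vector tumors 3 and 5 had 0.265 and 0.322. The other tumors had weights of 1.33 to 2.83, so the weighted fit is not separate from leaving that Adamts7 tumor out. Over all 21 alternatives the Cdh19 value lay between -0.95 and -0.44, with limma adjusted p-values from 0.0284 to 0.543. The authors' deposited table gives Cdh19 a log2 fold change of -0.34 with a standard error of 0.37 and an adjusted p of 0.616.

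The tumor labelled Adamts7 5 differed from Adamts7 tumors 1 to 4 in other genes as well. Its 8 macrophage markers summed to 408 TPM, against 886 to 1977 TPM in Adamts7 tumors 1 to 4, and its Sox10 was at 494 TPM against 705 to 725 TPM. Vector tumor 4, which had the most Cdh19 among the vector tumors, was also the only tumor with a raised sum of 8 skeletal muscle markers, at 413 TPM against 1.59 to 5.87 TPM in Adamts7 tumors and no more than 5.70 TPM in vector tumors 1, 2, 3 and 5. The part of other tissue in the Cdh19 values was not tested.

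**Figure D2:**
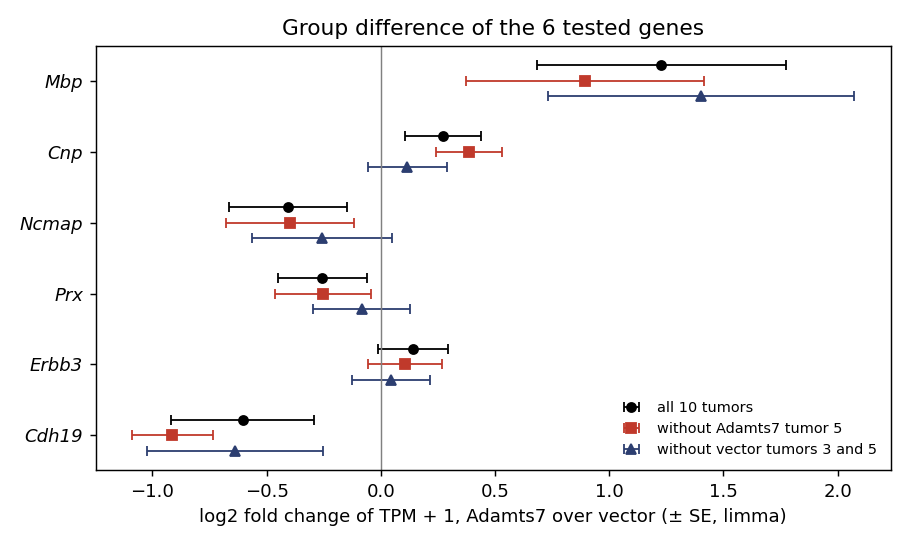
Log2 fold change of TPM + 1, Adamts7 over vector, for the 6 tested members with standard errors from limma, with all 10 tumors (black circles), without the tumor labelled Adamts7 5 (red squares) and without vector tumors 3 and 5 (blue triangles). Cdh19 moves from -0.60 to -0.91 when the tumor labelled Adamts7 5, the highest of all in Cdh19, is left out. Prx moves from -0.26 to -0.08 when vector tumors 3 and 5 are left out.

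The members did not share a common pattern over the tumors. The root mean square difference between the centred log2(TPM + 1) profiles of a pair ran from 0.31 for Cnp and Erbb3 to 1.25 for Mbp and Cdh19, and all 5 pairs with Mbp were the widest. Among 12653 tested genes, predicted genes and clone names left out, those closest to Cdh19 over the 10 tumors were Mnd1, Alg14 and Cip2a, at 0.14, 0.16 and 0.17 log2 units, against the 0.58 by which Cdh19 itself varied around its mean. The closest gene to Mbp was Hpse, which encodes heparanase, at 0.54 against 1.07 log2 units. The closest to Cnp was Zfp444 (0.07 against 0.28), to Prx Tcte2 (0.11 against 0.28), to Erbb3 Smarcad1 (0.10 against 0.23) and to Ncmap Cep70 (0.21 against 0.39 log2 units). Among the 3 closest to Erbb3 was Pou3f2, a POU factor that acts in Schwann cells and in melanoma, at 0.12 log2 units. These likenesses describe 10 tumors that share their library scaling.

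**Figure D3:**
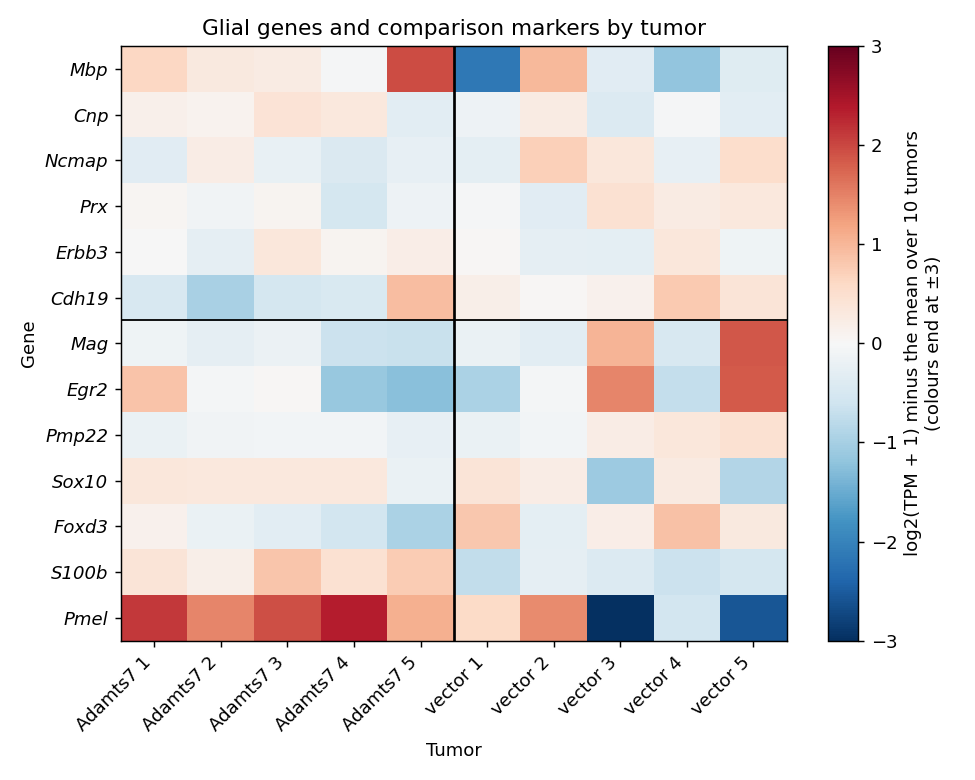
Log2(TPM + 1) minus its mean over the 10 tumors for the 6 tested members (above the line) and 7 comparison markers (below it), with Adamts7 tumors at the left and vector tumors at the right. Mbp and Cdh19 are highest in the tumor labelled Adamts7 5, while Mag and Egr2 are highest in vector tumors 3 and 5, where Pmel and Sox10 are lowest.

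Among the other structural genes of myelin, Mag was highest in vector tumors 5 and 3, at 6.19 and 3.01 TPM, against 0.24 to 0.82 TPM in Adamts7 tumors. Of the list, 9 of 15 genes were tested, 0 were called, and 3 were higher and 6 lower on average, with a median log2 fold change of -0.29 beside the -0.10 of all tested genes. Vector tumors 5 and 3 were also those with the low melanocyte and high T cell sums given above, whose part in the values of Mag, Egr2 and Prx was not tested.

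Pmp22 averaged 169 ± 8.74 TPM in Adamts7 tumors and 211 ± 39.8 TPM in vector tumors (SD, n = 5 each), with a log2 fold change of -0.29 (limma, adjusted p = 0.252). Without vector tumors 3 and 5 the value for Pmp22 was -0.17. The tetraspanin gene Cd9 averaged 377 ± 49.7 TPM in Adamts7 tumors and 745 ± 409 TPM in vector tumors (SD, n = 5 each). Vector tumors 3 and 5 were at 1227 and 1144 TPM of Cd9, and its log2 fold change of -0.81 was -0.25 without them. Of the genes that ran the other way, Pllp, which encodes plasmolipin, averaged 6.24 ± 1.57 TPM in Adamts7 tumors and 2.89 ± 2.47 TPM in vector tumors (SD, n = 5 each), and the connexin gene Gjb1 averaged 11.2 ± 5.94 TPM in Adamts7 tumors and 3.80 ± 3.45 TPM in vector tumors (SD, n = 5 each). The same 2 vector tumors were lowest in both, at 0.22 and 0.8 TPM of Pllp and at 0.07 and 0.56 TPM of Gjb1. Without them the log2 fold change was 0.42 for Pllp and 0.55 for Gjb1, beside 1.16 and 1.52 with all tumors. Adamts7 tumors 1 to 4, at 10.85 to 17.47 TPM of Gjb1, lay above the highest vector tumor at 7.57 TPM. The tumor labelled Adamts7 5 was at 1.54 TPM, and without it the Gjb1 value was 2.03 (limma, adjusted p = 0.0914). The Gjb1 value was 1.06 with vector tumors 3 and 5 left out as well (limma, adjusted p = 0.0363), a fit chosen after seeing the data. Of the myelin lipid and axon support list, 5 of 8 genes were tested and 0 were called, with a median of 0.21. The log2 fold change of Sqle, a sterol enzyme gene, was 0.64 and turned to -0.05 without vector tumors 3 and 5. The tubulin and microtubule genes set beside Cnp had 4 of 6 tested and 0 called, with Tubb4a at 4.61 ± 2.67 TPM in Adamts7 tumors and 1.79 ± 0.624 TPM in vector tumors (SD, n = 5 each). The log2 fold change of Tubb4a was 0.88 and did not pass (limma, adjusted p = 0.219). It passed without the tumor labelled Adamts7 5, at 1.18 (limma, adjusted p = 0.0425), and with weights estimated for each tumor, at 1.12 (limma, adjusted p = 0.04).

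Among the regulators of myelination, 8 of 10 genes were tested and 0 were called, with a median log2 fold change of -0.07. Egr2, the zinc finger factor of myelinating cells, had 10.3, 5.03, 5.40, 1.85 and 1.64 TPM across Adamts7 tumors 1 to 5, against 2.23, 4.99, 16.5, 2.83 and 21.6 TPM across vector tumors 1 to 5. It was highest in vector tumors 5 and 3, which were also highest in Prx, and its log2 fold change of -0.63 turned to 0.27 without them. Nab1 and Nab2 encode co-regulators that bind Egr2. Nab1 averaged 22.9 ± 1.31 TPM in Adamts7 tumors and 33.9 ± 3.67 TPM in vector tumors (SD, n = 5 each) without overlap, with a log2 fold change of -0.54 (limma, adjusted p = 0.0689), which passed without the tumor labelled Adamts7 5 at -0.56 (adjusted p = 0.0262 by limma). Nab2 ran the other way at 182 ± 56.9 TPM in Adamts7 tumors and 119 ± 25.8 TPM in vector tumors (SD, n = 5 each), with 0.56 over all tumors and 0.80 without the tumor labelled Adamts7 5 (limma, adjusted p = 0.253 and 0.0315). Pou3f1, a factor of promyelinating cells, averaged 18.8 ± 8.72 TPM in Adamts7 tumors and 9.47 ± 7.28 TPM in vector tumors (SD, n = 5 each). Vector tumors 3 and 5 were low in Pou3f1, at 0.45 and 2.73 TPM, and its log2 fold change was 1.22 with all tumors, 0.64 without vector tumor 3 and 0.12 without both. Adamts7 tumors 1 to 4, at 19.17 to 25.96 TPM of Pou3f1, lay above the highest vector tumor at 15.88 TPM. Without the tumor labelled Adamts7 5 the value was 1.68 (limma, adjusted p = 0.174). It was 0.57 with vector tumors 3 and 5 left out as well (limma, adjusted p = 0.04), a fit chosen after seeing the data.

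Of the genes of precursor, immature and repair Schwann cells, 13 of 16 were tested and 1 was called. S100b, a calcium-binding protein of glia and melanoma, rose, with 136, 116, 185, 141 and 176 TPM across Adamts7 tumors 1 to 5, against 61.5, 84.7, 76.8, 65.5 and 71.3 TPM across vector tumors 1 to 5 and no overlap (log2 fold change 1.04, limma adjusted p = 0.0288). The call was lost when any of Adamts7 tumors 1, 3 and 4 or vector tumors 3, 4 and 5 was left out, with limma adjusted p-values of 0.0507 to 0.119 and log2 fold changes of 0.96 to 1.07 over these fits. It was also lost with no filter on level, at the same fold (limma adjusted p = 0.0616), and without vector tumors 3 and 5 together, at 1.07 (limma adjusted p = 0.0558). The sums of 2 other lists separated the groups as S100b did. The 9 mitochondrially encoded genes summed to 52662 to 60037 TPM in Adamts7 tumors and to 37276 to 48034 TPM in vector tumors, with 0 of 9 called. The 13 genes induced by interferon-gamma summed to 328 to 617 TPM in Adamts7 tumors and to 1080 to 4682 TPM in vector tumors. Limma called 4 of these 13 lower, Gbp4, Iigp1, Irgm1 and Tgtp1, and 12 of 13 were lower without overlap, beside 3.78% of all tested genes. The part of either list in the S100b values was not tested. The precursor, immature and repair list had 5 positive and 8 negative log2 fold changes and a median of -0.31. Foxd3 averaged 41.6 ± 11.7 TPM in Adamts7 tumors and 71.8 ± 23.1 TPM in vector tumors (SD, n = 5 each) and did not pass (limma, adjusted p = 0.165).

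Around Erbb3, 10 of 16 genes were tested of the neuregulin and ErbB pathway and 0 were called, with 2 positive and 8 negative log2 fold changes and a median of -0.19. Erbb2, which supplies the kinase that Erbb3 needs, had 13.4, 12.0, 14.8, 15.4 and 6.44 TPM across Adamts7 tumors 1 to 5, against 16.0, 14.1, 18.1, 19.1 and 15.6 TPM across vector tumors 1 to 5. The tumor labelled Adamts7 5 was the lowest and the groups overlapped (log2 fold change -0.43, limma adjusted p = 0.274), and the value was -0.24 without that tumor. The ligand gene Nrg1 averaged 0.83 ± 0.544 TPM in Adamts7 tumors and 1.63 ± 1.28 TPM in vector tumors (SD, n = 5 each), and Rnf41, a ubiquitin ligase that acts on Erbb3, averaged 44.4 ± 7.30 TPM in Adamts7 tumors and 36.7 ± 2.70 TPM in vector tumors (SD, n = 5 each).

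Around Gfra3, 7 of 10 genes were tested of the GDNF family and 0 were called. Gdnf averaged 8.38 ± 1.86 TPM in Adamts7 tumors and 14.8 ± 5.20 TPM in vector tumors (SD, n = 5 each), a log2 fold change of -0.72 (limma, adjusted p = 0.151), and the related receptor gene Gfra1, at 126 ± 13.8 TPM in Adamts7 tumors and 106 ± 51.1 TPM in vector tumors (SD, n = 5 each), exceeded Gfra3 in every tumor. The log2 fold change of Gfra1 was 0.40 and turned to -0.13 without vector tumors 3 and 5.

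Around Prx, 12 of 13 genes of the dystroglycan complex and the basal lamina were tested, 0 were called, and 10 of the log2 fold changes were negative (median -0.30). The sarcoglycan genes Sgcd and Sgce code for parts of the same complex. Sgcd averaged 7.28 ± 2.86 TPM in Adamts7 tumors and 13.7 ± 3.59 TPM in vector tumors (SD, n = 5 each). Sgce averaged 48.0 ± 4.91 TPM in Adamts7 tumors and 87.6 ± 36.1 TPM in vector tumors (SD, n = 5 each), without overlap. Their log2 fold changes of -0.87 and -0.77 did not pass (limma, adjusted p = 0.135 and 0.146), and Sgcd passed without the tumor labelled Adamts7 5 (limma adjusted p = 0.0444). For Sgce, vector tumors 3 and 5 stood highest, at 127 and 127 TPM, and its log2 fold change was -0.35 without them. Dmd, which encodes dystrophin, had 26.0, 14.6, 19.6, 15.0 and 7.48 TPM across Adamts7 tumors 1 to 5, against 22.5, 15.1, 95.8, 45.4 and 93.4 TPM across vector tumors 1 to 5, and vector tumors 3 and 5 again stood highest. Its log2 fold change was -1.42 with all tumors and -0.66 without those 2.

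Around Cdh19, 11 of 18 cadherin and catenin genes were tested and 0 were called, with 5 positive and 6 negative log2 fold changes and a median of -0.24. Cdh2, the neural cadherin, averaged 48.1 ± 6.96 TPM in Adamts7 tumors and 57.4 ± 9.95 TPM in vector tumors (SD, n = 5 each) (log2 fold change -0.24, limma adjusted p = 0.34), and the value was -0.16 without vector tumor 4. Cdh19 stood at 0.687 to 2.08 times the level of Cdh2 in Adamts7 tumors, the top value being the tumor labelled Adamts7 5, and at 1.14 to 1.64 times in vector tumors. Cdh24 averaged 1.62 ± 0.324 TPM in Adamts7 tumors and 2.67 ± 0.27 TPM in vector tumors (SD, n = 5 each) without overlap, and Cdh13 averaged 5.44 ± 2.19 TPM in Adamts7 tumors and 3.09 ± 0.962 TPM in vector tumors (SD, n = 5 each).

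**Figure D4:**
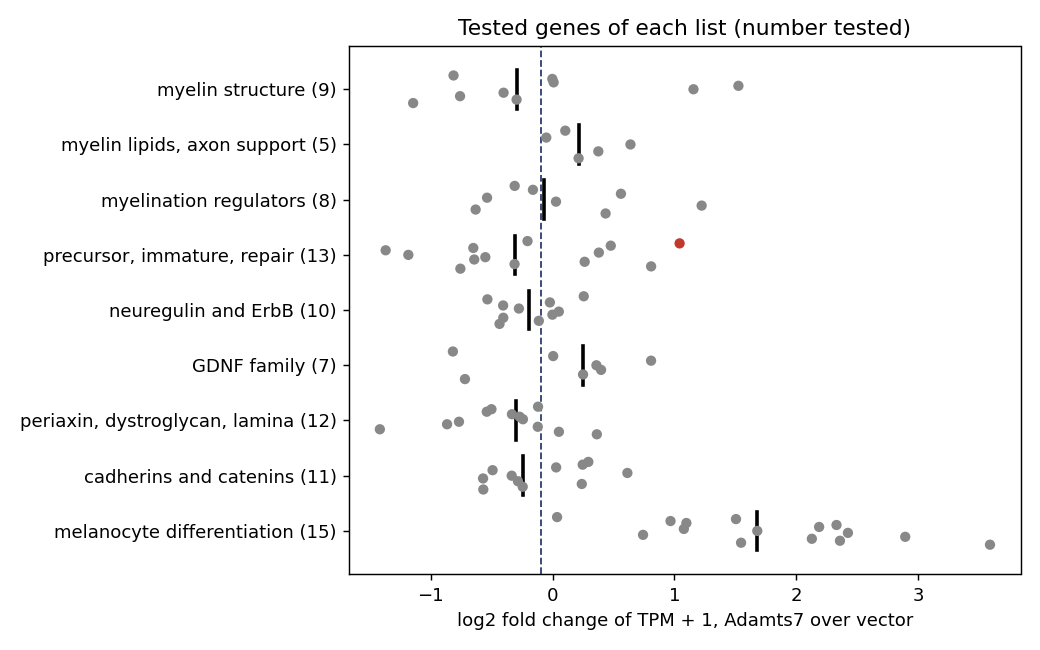
Log2 fold change of TPM + 1, Adamts7 over vector, of each tested gene of 8 lists around the members and of the melanocyte list, with the number tested in parentheses, the list median as a black bar and the median of all tested genes as a dashed line at -0.10. The 1 gene called by limma is drawn in red, S100b at 1.04, and the melanocyte list has its median at 1.68.

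Markers of other cells that a nerve or a tumor bed could bring were also examined. Of 10 oligodendrocyte lineage genes 5 were tested, of 12 neuron and axon genes 7, of 10 astrocyte genes 7 and of 8 perineurial and endoneurial genes 5, and 0 were called in each. The neuron and axon list summed to 60.0 to 158 TPM in Adamts7 tumors and to 43.1 to 76.0 TPM in vector tumors. The neurofilament gene Nefl had 3.78, 6.80, 6.43, 1.12 and 0.98 TPM across Adamts7 tumors 1 to 5, against 0.06, 0.03, 2.29, 5.45 and 2.92 TPM across vector tumors 1 to 5, with vector tumors 1 and 2 close to 0. Their part in the values of the 7 genes was not tested.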

How the data were processed

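RNA of 10 tumors was sequenced, 5 per group, with 1 library a tumor and groups taken from the titles. Per the labels' protocols, poly(A) RNA libraries with molecular identifiers and spike-ins were read as pairs of 150 bases and demultiplexed with bcl2fastq 2.17. The authors deposited log2(TPM + 1) values per gene symbol; the submitters' processing notes name RSEM and the build mm39. The sources used here give neither the annotation nor whether identifiers were used in counting. The TPM summed to 995286 to 998019 per tumor, and 21515 to 23859 genes were above 0 TPM. TPM keeps no depth, so the depth of a tumor is unknown and no counting interval is given.

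The authors' deposited comparison table gives for each gene a log2 fold change with its test score and p-value, beside the mean signal after normalization; the submitters' processing notes name DESeq2. Its direction was read from Adamts7, which is positive there. Its identifiers were paired with symbols through a GRCm38 table, 28805 of 30040 of them. The deposited repertoire table was not used.

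The test was that of limma 3.58.1 (R 4.3.3), run on log2(TPM + 1) for genes averaging 1 TPM or more, with group as the only term and a trended prior variance. Values were joined in Python 3.11.15 with pandas 2.3.3. The members and lists were chosen with earlier results of these data known, so lists are given by counts and medians with no set test. Genes were named as members, as fixed cell type markers, as called genes or up to 4 with the smallest p of a list, or as the closest profiles; some genes under this rule are not reported here. The limma test was also run on simulated data for 15276 genes, each with its own spread from this comparison. It recovered 48.3% of genes changed by 1 and 82.8% of those changed by 2 on the log2 scale, with 7.20 false calls per run. The simulated noise was independent between genes and tumors and held no outlying tumor, so these rates may not hold for the tumors here. No pair of tumors had identical values.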

Additional observations from a re-analysis of the deposited data

Results flagged for a closer look

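In groups of 5 tumors, a tumor was singled out where its gap to the nearest other tumor on the log2(TPM + 1) scale exceeded 0.71 of the range of the group (Dixon's test). Chance singles out about 1 in 20 groups, and 76 groups were examined. These were 38 genes in the same tumors, some of them named for a small p. The groups are therefore not independent, and the number found cannot be set against that rate. Of the 9 found, 8 were the tumor labelled Adamts7 5. Among the members it was Cdh19, at 122 TPM against 45.9 TPM in the nearest tumor of its group. Adamts7 itself was low there, at 18.2 TPM against 74.8 TPM. So were Sox10, at 494 against 705 TPM, Pou3f1, at 3.86 against 19.2 TPM, and Gjb1, at 1.54 against 10.8 TPM. Cd9, at 291 against 378 TPM, Gfra4, at 1.73 against 8.95 TPM, and Tubb3, at 68.8 against 246 TPM, were low in that tumor too. The remaining case was Gfra1 in Adamts7 tumor 1, at 102 against 128 TPM. Why the tumor labelled Adamts7 5 stands apart was not tested.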

How the results depend on the processing

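Of the 7 members, 1, Cdh19, was called in 3 of 21 alternatives and 0 in the others: with array weights, without the tumor labelled Adamts7 5, and without that tumor and vector tumors 3 and 5 together (limma adjusted p = 0.0355 there). Leaving out 1 tumor gave 0 to 1 called members. Over all genes, 4 were higher and 30 lower with all tumors. With a filter of 0.1 TPM these counts were 2 and 17, with no filter 1 and 9, with a filter of 5 TPM 2 and 26, under quantile normalization 10 and 20, under median-of-ratios scaling 8 and 21, without a trend 8 and 27, and with array weights 263 and 956. Leaving out 1 tumor gave 0 to 170 higher and 5 to 487 lower, the top of both ranges being the fit without the tumor labelled Adamts7 5. The removal of vector tumors 3 and 5, alone or together with the tumor labelled Adamts7 5, was chosen after seeing the data and gave 3 and 30, and 225 and 689. Called genes of the lists numbered 5 with all tumors, 2 and 0 with a filter of 0.1 TPM and with none, 3, 3 and 3 under quantile normalization, median-of-ratios scaling and no trend, 26 with array weights, 3 and 23 in the 2 added fits, and 0 to 14 with 1 tumor left out. The causes were not tested.

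A fit with the replicate number as a block gave 0 genes higher, 0 lower and 0 called genes of the lists, where S100b had an adjusted p of 0.138 (limma). The titles share the numbers 1 to 5, but deviations of same-numbered tumors correlated at -0.28, 0.00087, 0.05, 0.26 and -0.03, and 1 of 5 Adamts7 tumors correlated best with its own number, so the numbers were not taken as pairs.

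Directions turned for Prx under quantile normalization (0.0052), for Egr2 with array weights (0.17), and without vector tumors 3 and 5 for Sox10 (-0.072), Egr2 (0.27), Gfra1 (-0.13), Tubb3 (-0.0086) and Sqle (-0.051). When Adamts7 tumor 5 was dropped as well, the values were 0.50 for Egr2, -0.14 for Gfra1 and -0.17 for Sqle. Sox10 and Tubb3 were positive again in that fit, at 0.034 and 0.38. Over all genes, the median log2 fold change of -0.10 became 0.04 under quantile normalization and 0.0075 under median-of-ratios scaling. Members at low TPM, Ncmap and Gfra3, are limited by a depth that the values do not give.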
